A study of Mus musculus with 8 samples.

Results

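The genes described here make chondroitin sulfate and supply its sulfate, as measured in cultured mouse chondrocytes with and without IL-1β, an inflammatory cytokine found in osteoarthritic joints. They are the 10 rows named *Slc26a2*, *Papss1*, *Papss2*, *Xylt1*, *Csgalnact1*, *Chsy1*, *Chsy3*, *Chst11*, *Chst3* and *Chst15* among the 54658 gene symbols of the RNA-Seq count table. The rows were selected by name, with earlier results of these data known. Chondrocytes were taken from femoral head cartilage of 3-week-old wild-type mice, plated, and given IL-1β at 1 ng/mL or vehicle for 24 h. There were 4 samples per group, numbered 1 to 4. The cells of both groups carried no engineered allele, and the cytokine is the only difference between the groups that the sources state. The labels do not say whether the samples are separate mice or cultures, so the p-values measure the spread between these samples, which may be technical.

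Chondroitin sulfate is a long, negatively charged sugar chain that draws water into cartilage, mostly as side chains of aggrecan, and so lets the tissue resist compression. A chain is started by transfer of xylose to a serine of the core protein, continues through a short linkage region, is committed to chondroitin by a first N-acetylgalactosamine, and is then polymerized by chondroitin synthases. Sulfotransferases decorate the chain, and they take the sulfate from the activated donor phosphoadenosine phosphosulfate (PAPS), which is made from sulfate that the cell imports. Loss-of-function mutations in several of these genes cause skeletal dysplasias.

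Most of these 10 genes were lower after IL-1β, by 1.20-fold to 2.82-fold. Of the 10 genes, 8 fell, 0 rose and 2, *Papss1* and *Chst15*, did not pass the test (Benjamini-Hochberg adjusted p under 0.05 from edgeR's quasi-likelihood test, adjusted over the 14404 genes tested). Across all genes tested, 19.8% fell and 20.4% rose by the same criterion. The groups did not overlap for the same 8 genes, against 36.8% of genes tested, and in all 8 the IL-1β values were the lower ones, against 18.2% of genes tested. When a log2 fold change beyond 1 was also required, which defines a differentially expressed gene (DEG), *Chsy3* alone was downregulated, where 2.35% of genes tested were. The median log2 fold change of the 10 genes was -0.61, and that of all genes tested was -0.0012. In a bulk sample, fewer cells that express a gene and less of its RNA per cell cannot be told apart.

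**Figure D1:**
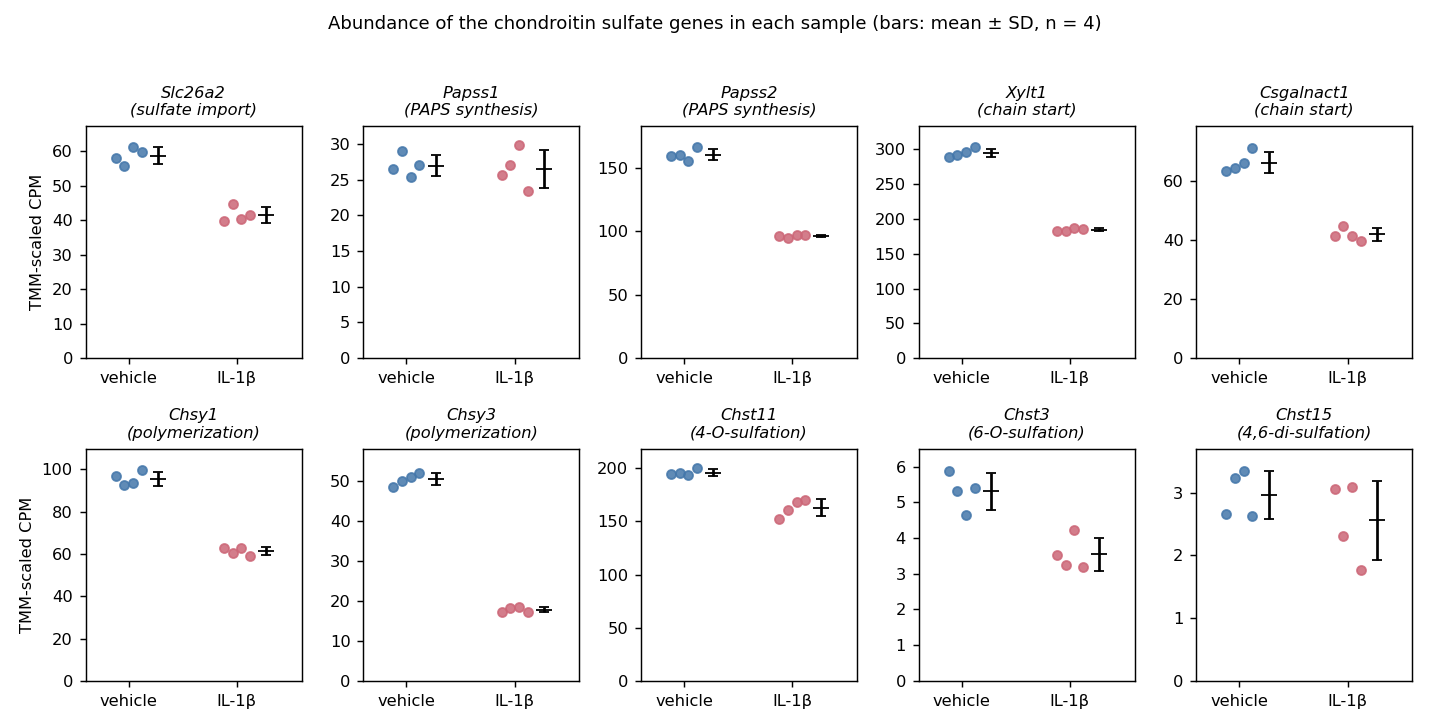
TMM-scaled abundance (CPM, vertical axes from 0) of the 10 genes in each of the 4 vehicle and 4 IL-1β samples (points), with the mean ± SD beside them. The points of the groups are apart in 8 panels and overlap for *Papss1* (23.4 to 29.8 CPM) and *Chst15* (1.77 to 3.35 CPM).

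The pathway starts with the import of sulfate. *Slc26a2* encodes the sulfate transporter of the plasma membrane whose loss causes diastrophic dysplasia. Its abundance, in TMM-scaled CPM (the share of the library's reads, expressed per 1e6 reads), was 58.0, 55.6, 61.3 and 59.8 in vehicle samples 1 to 4 and 39.6, 44.6, 40.2 and 41.4 in IL-1β samples 1 to 4. Every IL-1β sample was lower than every vehicle sample, with 11.1 CPM between the nearest samples. The means were 58.7 ± 2.42 CPM (SD, n = 4) and 41.5 ± 2.1995 CPM (SD, n = 4), a 1.41-fold decrease (log2 fold change -0.50, standard error 0.0453, adjusted p = 3.13e-10).

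PAPS is made from sulfate and ATP by a pair of bifunctional synthetases, and these behaved differently. *Papss2*, the isoform whose mutations affect the skeleton, had 159, 160, 156 and 166 CPM in vehicle samples 1 to 4 and 96.6, 94.98, 96.7 and 97.1 CPM in IL-1β samples 1 to 4. The IL-1β samples lay close together, and all of them were below the vehicle samples. *Papss2* fell 1.66-fold (log2 fold change -0.73, standard error 0.0315, adjusted p = 1.48e-17), the second lowest log2 fold change of the 10 genes. *Papss1*, the other isoform, had 26.4, 28.9, 25.4 and 27.1 CPM in the vehicle group against 25.7, 27.04, 29.8 and 23.4 CPM in the IL-1β group. Its groups overlapped entirely, with the highest and the lowest of the 8 values both after IL-1β. The log2 fold change of *Papss1* was -0.021 with a 95% interval from -0.15 to 0.11 (adjusted p = 0.837), so a decrease of the size seen for *Papss2* lies outside its interval.

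Within each sample, *Papss1* had 0.19 to 0.22 reads per kilobase of exon for each of *Papss2* with vehicle and 0.29 to 0.37 with IL-1β. The share of *Papss2* in the PAPS synthetase reads per kilobase was 83.3% ± 0.704 (SD, n = 4) with vehicle and 75.4% ± 1.93 (SD, n = 4) with IL-1β. The log2 ratio of *Papss1* to *Papss2* rose by 0.70 (two-sided exact permutation test over samples, p = 0.0286, the lowest value possible for 4 against 4, and 0.0429 adjusted over the 6 ratios of paired enzymes that were compared). Such a ratio is taken inside a sample and does not depend on how the samples were scaled to each other.

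The promoters of this pair are shown because the isoforms of the same reaction parted under IL-1β. The windows run from 250 bases before to 50 bases after the RefSeq transcription start in GRCm38.p6 (chr3:131564518-131564817 for *Papss1* and chr19:32595465-32595764 for *Papss2*, both on the plus strand), for each gene the start nearest to that of the annotated gene. Capitals mark GC boxes (GGGCGG) and CCAAT boxes (CCAAT), on either strand, which are common elements of mammalian promoters.
Papss1: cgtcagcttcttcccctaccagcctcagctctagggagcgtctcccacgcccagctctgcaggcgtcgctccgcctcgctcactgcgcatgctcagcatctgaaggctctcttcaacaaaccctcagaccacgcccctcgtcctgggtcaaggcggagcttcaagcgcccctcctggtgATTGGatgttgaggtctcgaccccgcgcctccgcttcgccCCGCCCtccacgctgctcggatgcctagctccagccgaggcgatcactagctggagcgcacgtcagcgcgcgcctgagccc
Papss2: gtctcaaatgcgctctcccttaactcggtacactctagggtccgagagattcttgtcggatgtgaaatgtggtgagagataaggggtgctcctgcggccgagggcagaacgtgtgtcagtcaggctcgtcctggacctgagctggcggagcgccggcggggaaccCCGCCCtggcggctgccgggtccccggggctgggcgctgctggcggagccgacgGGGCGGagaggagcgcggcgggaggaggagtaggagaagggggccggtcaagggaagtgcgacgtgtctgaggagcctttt
Both windows were 66.3% G and C and held 27 CpG dinucleotides each. *Papss1* had 1 GC box and 1 CCAAT box, and *Papss2* had 2 GC boxes and no CCAAT box. Among all 32851 promoter windows of the same length, 35.7% held a GC box and 37.4% held a CCAAT box. Neither window contained TGANTCA, a motif of AP-1, or GGGNNTTTCC, a motif of NF-κB, on either strand, which 7.81% and 1.63% of all windows held, and this says only that these letters are not there.

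The chain is started by xylosyltransferases. *Xylt1*, the isoform whose mutations cause a skeletal dysplasia, had 288, 292, 295 and 303 CPM in vehicle samples 1 to 4 and 182, 183, 188 and 185 CPM in IL-1β samples 1 to 4. The nearest samples of the groups were 101 CPM apart. *Xylt1* fell 1.596-fold (log2 fold change -0.67, standard error 0.0308, adjusted p = 6.03e-17). Its paralog *Xylt2* averaged 22.0 ± 1.396 CPM (SD, n = 4) in the vehicle group against 24.2 ± 2.63 CPM (SD, n = 4) in the IL-1β group, and its groups overlapped (log2 fold change 0.15, adjusted p = 0.101). There were 5.16 to 5.86 reads per kilobase of *Xylt1* for each of *Xylt2* with vehicle and 2.75 to 3.48 with IL-1β. The log2 ratio fell by 0.81 (exact permutation test, two-sided, p = 0.0286, adjusted p = 0.0429).

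*Csgalnact1* encodes the transferase that adds the first N-acetylgalactosamine and thereby commits the chain to chondroitin. It had 63.2, 64.1, 65.8 and 71.1 CPM in vehicle samples 1 to 4 and 41.4, 44.8, 41.3 and 39.6 CPM in IL-1β samples 1 to 4. The highest IL-1β value stayed 18.4 CPM below the lowest vehicle value. The decrease was 1.58-fold (log2 fold change -0.66, standard error 0.0466, adjusted p = 1.39e-12). The paralog *Csgalnact2* fell less, from 49.6 ± 1.35 CPM to 43.7 ± 3.78 CPM (SD, n = 4 each), with a log2 fold change of -0.19 (adjusted p = 0.00323). Per kilobase, *Csgalnact1* made up 58.7% ± 0.993 (SD, n = 4) of the pair with vehicle and 50.6% ± 2.14 (SD, n = 4) with IL-1β. The log2 ratio of *Csgalnact1* to *Csgalnact2* fell by 0.47, without overlap of the groups (exact permutation test, two-sided, p = 0.0286, adjusted p = 0.0429).

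Polymerization of the repeating disaccharide needs chondroitin synthases, and here the largest change of the 10 genes was found. *Chsy3*, a synthase with both glycosyltransferase activities, had 48.5, 50.1, 51.1 and 52.1 CPM in vehicle samples 1 to 4 and 17.2, 18.2, 18.6 and 17.4 CPM in IL-1β samples 1 to 4. The IL-1β mean was 35.3% of the vehicle mean, and the spread within either group was below 2 CPM (SD). The decrease was 2.82-fold (log2 fold change -1.49 with a standard error of 0.0516, adjusted p = 8.08e-20), and 0.944% of all genes tested had a lower log2 fold change. *Chsy1*, its paralog, had 96.9, 92.6, 93.4 and 99.7 CPM in the vehicle group against 63.1, 60.4, 62.7 and 59.0 CPM in the IL-1β group. Its groups were also apart, at a smaller fold. *Chsy1* fell 1.56-fold (log2 fold change -0.64, standard error 0.0392, adjusted p = 5.19e-14).

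The difference between the synthases was tested within samples. With vehicle, *Chsy3* held 42.9% of the reads per kilobase of the pair, and with IL-1β it held 29.3% (SD 0.969 and 0.902 percentage points, n = 4 each). The log2 ratio of *Chsy1* to *Chsy3* rose from 0.41 ± 0.0571 to 1.27 ± 0.0633 (SD, n = 4 each), a difference of 0.86 (exact permutation test, two-sided, p = 0.0286, adjusted p = 0.0429). The shares, but not the difference, depend on gene length: the count table lists 2931 bases of exon for *Chsy3*, while the GENCODE vM21 annotation gives it 7228 bases. *Chpf* and *Chpf2*, the further synthase family members that assist polymerization, differed from these synthases in their values. *Chpf2* rose slightly, from 46.0 ± 3.35 to 52.6 ± 0.95 CPM (log2 fold change 0.20, adjusted p = 0.0012), with 44.1% of its exon bases shared with other genes, and for *Chpf*, named after its values were seen, the log2 fold change was -0.025 (adjusted p = 0.598).

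**Figure D2:**
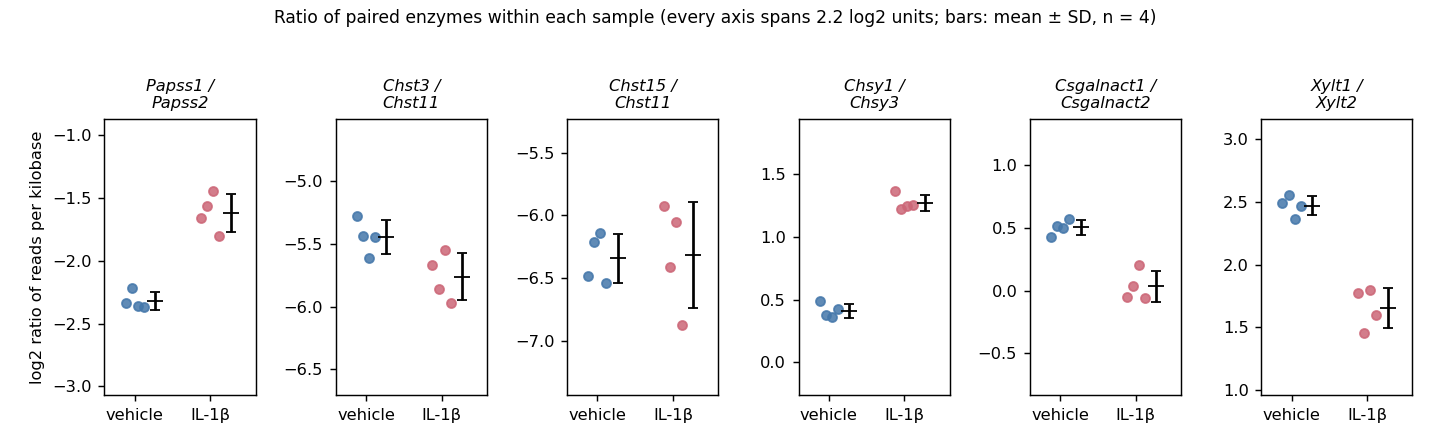
Log2 ratio of reads per kilobase of exon for 6 pairs of enzymes in the 4 vehicle and 4 IL-1β samples (points), with the mean ± SD, on axes of equal span. The groups do not overlap for *Papss1* to *Papss2*, *Chsy1* to *Chsy3*, *Csgalnact1* to *Csgalnact2* and *Xylt1* to *Xylt2*, and they overlap for *Chst3* to *Chst11* and *Chst15* to *Chst11*.

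Among the selected genes, *Chst11* sulfates the galactosamine at the 4 position and *Chst3* at the 6 position. *Chst15* adds a 6-sulfate to units already sulfated at the 4 position. *Chst11*, whose loss in mice causes severe chondrodysplasia, had 194, 196, 193 and 199.9 CPM in vehicle samples 1 to 4 and 152, 161, 168 and 170 CPM in IL-1β samples 1 to 4. The groups were 23.2 CPM apart at their nearest samples, although the fold was small. *Chst11* fell 1.20-fold (log2 fold change -0.26, standard error 0.0332, adjusted p = 1.45e-07), the smallest decrease among the 8 genes that fell. *Chst3* was scarce, with 102, 92, 65 and 82 reads in vehicle samples 1 to 4 and 39, 45, 71 and 45 reads in IL-1β samples 1 to 4. After scaling these were 4.64 to 5.88 CPM and 3.19 to 4.22 CPM, so the groups missed each other by 0.42 CPM. *Chst3* fell 1.49-fold (log2 fold change -0.58, standard error 0.138, adjusted p = 0.00119).

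*Chst15* gave the fewest reads of the 10 genes, with 46, 56, 47 and 40 reads with vehicle and 34, 32, 52 and 25 reads with IL-1β. The values overlapped, at 2.63 to 3.35 CPM and 1.77 to 3.09 CPM. Its log2 fold change was -0.21 with a 95% interval from -0.59 to 0.17 (adjusted p = 0.401), so at this depth neither an unchanged level nor a decrease like that of *Chst3* was distinguishable. The log2 ratio of *Chst3*, a 6-position enzyme, to *Chst11*, a 4-position enzyme, was -5.44 ± 0.137 with vehicle and -5.76 ± 0.188 with IL-1β (SD, n = 4 each). That difference of -0.32 did not pass (exact permutation test, two-sided, p = 0.0571, adjusted p = 0.0686). Other enzymes of these positions are left out of this ratio, so it does not give the balance between the positions. A further 6-position enzyme, *Chst7*, named after its values were seen, did not pass (log2 fold change 0.26, adjusted p = 0.0603). *Chst7* averaged 6.50 ± 0.874 CPM in vehicle samples against 7.83 ± 0.101 CPM in IL-1β samples (SD, n = 4 each). The log2 ratio of *Chst15* to *Chst11* differed by 0.026, less than the spread within either group (exact permutation test, two-sided, p = 0.914).

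Another enzyme for the 4 position moved the other way. *Chst12*, which sulfates chondroitin and dermatan chains at the same position as *Chst11*, had 24.0, 24.8, 22.8 and 24.8 CPM in vehicle samples 1 to 4 and 34.1, 35.2, 40.2 and 39.2 CPM in IL-1β samples 1 to 4. Every IL-1β sample was above every vehicle sample. *Chst12* rose 1.55-fold (log2 fold change 0.63, standard error 0.0579, adjusted p = 3.91e-10). There were 3.37 to 3.62 reads per kilobase of *Chst11* for each of *Chst12* with vehicle and 1.79 to 1.95 with IL-1β, a ratio that was chosen after the values were seen and is given without a test. The share of *Chst11* in the pair was 77.6% ± 0.517 with vehicle and 65.2% ± 0.855 with IL-1β (SD, n = 4 each).

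The promoters of *Chst11* and *Chst12* are given because these enzymes of the same position changed in opposite directions. Window, build and capitals are as for the PAPS synthetases (chr10:82985247-82985546 and chr5:140505359-140505658, both on the plus strand).
Chst11: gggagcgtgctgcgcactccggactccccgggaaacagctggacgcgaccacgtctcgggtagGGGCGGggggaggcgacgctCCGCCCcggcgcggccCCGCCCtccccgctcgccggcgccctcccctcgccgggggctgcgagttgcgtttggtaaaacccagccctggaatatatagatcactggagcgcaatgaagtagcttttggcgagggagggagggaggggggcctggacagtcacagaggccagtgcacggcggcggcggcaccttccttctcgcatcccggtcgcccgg
Chst12: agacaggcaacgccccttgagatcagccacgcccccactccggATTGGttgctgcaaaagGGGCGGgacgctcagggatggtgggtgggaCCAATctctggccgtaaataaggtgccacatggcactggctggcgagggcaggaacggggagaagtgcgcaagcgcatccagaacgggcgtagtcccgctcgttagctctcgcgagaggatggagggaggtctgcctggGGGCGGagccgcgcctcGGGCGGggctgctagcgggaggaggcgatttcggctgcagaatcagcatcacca
*Chst11* had 3 GC boxes and no CCAAT box, and *Chst12* had 3 GC boxes and 2 CCAAT boxes. RefSeq gave a promoter window for 6 of the 10 genes, which also include *Chst3*, *Chst15* and *Chsy1*, and *Chst12* was taken in addition. The window nearest to the annotated gene start was 55.0 to 71.0% G and C in these 6 genes, against a median of 52.7% over all windows. Each of the 6 held at least 1 GC box, and none held the AP-1 or the NF-κB letters.

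Levels can be compared between genes only per length, as reads per kilobase of exon, scaled as CPM (RPKM). With vehicle the order was *Papss2*, *Chst11*, *Xylt1*, *Chsy1*, *Chsy3*, *Csgalnact1*, *Papss1*, *Slc26a2*, *Chst3* and *Chst15*, and no neighbours overlapped within 1 SD of their means. The levels ran from 44.1 ± 1.19 RPKM for *Papss2* to 0.439 ± 0.0562 RPKM for *Chst15* (SD, n = 4). With IL-1β the order changed at the top and in the middle. *Chst11* (29.5 ± 1.45 RPKM) then stood above *Papss2* (26.5 ± 0.256 RPKM), and *Chsy3* dropped from the fifth place (17.2 ± 0.52 RPKM) to the seventh (6.09 ± 0.224 RPKM), below *Papss1* (8.68 ± 0.878 RPKM) and *Csgalnact1* (8.20 ± 0.425 RPKM). *Papss1* and *Csgalnact1*, and *Chst3* and *Chst15*, did not differ beyond their spread with IL-1β. The place of *Chsy3* rests on the 2931 bases listed for it. With the 7228 bases of GENCODE vM21, an alternative chosen after seeing the data, *Chsy3* had 6.98 ± 0.211 RPKM with vehicle, which is the seventh place, and 2.47 ± 0.0906 RPKM with IL-1β, which is the eighth.

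**Figure D3:**
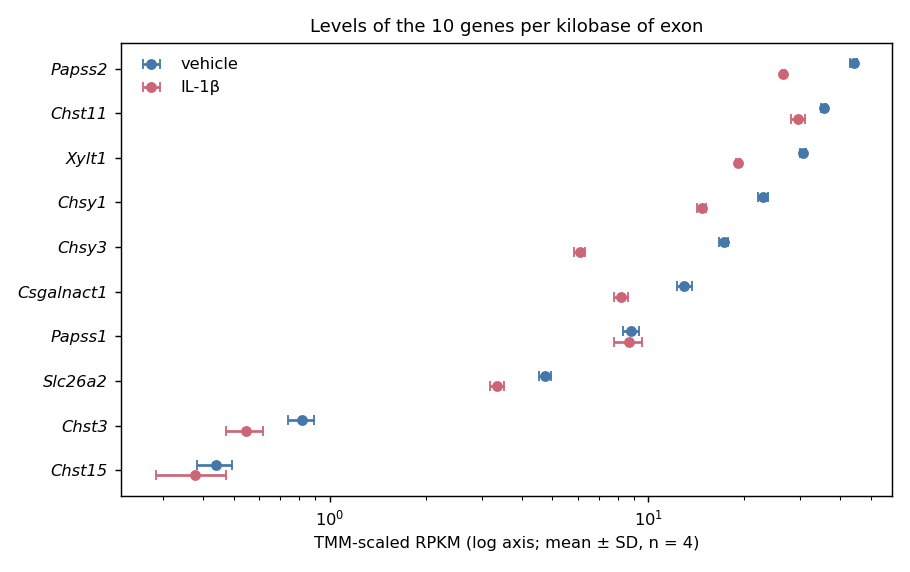
Mean level of the 10 genes in reads per kilobase of exon, scaled as CPM (RPKM, log axis), ± SD over 4 vehicle and 4 IL-1β samples, ordered by the vehicle mean, with the exon lengths listed in the count table. *Papss2* leads with vehicle at 44.1 RPKM and *Chst11* leads with IL-1β at 29.5 RPKM, while *Papss1* keeps its level.

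The rest of the pathway was described from lists of related genes. Among 6 genes of the linkage region, which joins the chain to the core protein, 2 fell, 0 rose and 4 did not pass (median log2 fold change -0.029), where 19.8% of all genes tested fell and 20.4% rose. *Fam20b*, the kinase that phosphorylates the first xylose, fell from 133 ± 2.55 to 108 ± 6.15 CPM (log2 fold change -0.30, adjusted p = 7.5e-08). *B3gat3*, which adds the glucuronic acid that ends the linkage region, fell from 47.2 ± 2.36 to 42.3 ± 1.54 CPM (log2 fold change -0.15, adjusted p = 0.00892), with groups that overlapped. None of these 6 genes was a DEG.

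Of 7 genes that modify chondroitin or dermatan sulfate in other ways, 6 were tested, of which 3 rose and 1 fell (median log2 fold change 0.26), against 20.4% and 19.8% of all genes tested. *Ust*, the 2-position sulfotransferase for uronic acid, rose from 5.43 ± 0.52 to 6.96 ± 0.589 CPM (log2 fold change 0.34, adjusted p = 0.0201). This call was lost with DESeq2 (adjusted p = 0.0536) and without IL-1β replicate 1 (adjusted p = 0.0599), vehicle replicate 3 (adjusted p = 0.0608) or vehicle replicate 4 (adjusted p = 0.0627). *Dse*, the epimerase that turns chondroitin into dermatan, fell from 249 ± 4.71 to 197 ± 1.59 CPM (log2 fold change -0.34, adjusted p = 1.84e-10). Besides *Chst12* and *Ust*, *Dsel* rose, which was named after its values were seen, an epimerase of the same kind as *Dse*, at 14.9 ± 1.25 CPM in vehicle samples against 17.8 ± 1.89 CPM in IL-1β samples (log2 fold change 0.25, adjusted p = 0.0176). The call of *Dsel* was lost without IL-1β replicate 2 (adjusted p = 0.0981) or vehicle replicate 3 (adjusted p = 0.0718).

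Of 15 genes for the supply of sulfate and sugar nucleotides, 7 fell, 1 rose and 7 did not pass (median log2 fold change -0.034), where 19.8% of all genes tested fell and 20.4% rose. *Gfpt1*, which controls entry into the hexosamine pathway that yields the galactosamine donor, fell from 228 ± 5.37 to 136 ± 3.20 CPM (log2 fold change -0.75 with a standard error of 0.031, adjusted p = 5.99e-18). Its paralog *Gfpt2*, named after its values were seen, did not pass (log2 fold change 0.14, adjusted p = 0.0506). *Slc35d1*, the carrier that brings sugar donors for chondroitin into the endoplasmic reticulum, fell from 43.7 ± 2.52 to 32.1 ± 2.56 CPM (log2 fold change -0.45, adjusted p = 9.97e-08). The gene that rose was *Uap1*, named after its values were seen, which makes UDP-N-acetylglucosamine (log2 fold change 0.42, adjusted p = 1.46e-08). *Slc35b2*, the Golgi transporter for PAPS, was also named after its values were seen, and averaged 43.5 ± 1.34 CPM in vehicle samples against 42.4 ± 1.25 CPM in IL-1β samples (log2 fold change -0.034, adjusted p = 0.594).

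Core proteins that carry these chains changed in both directions. Of 11 such genes, 9 were tested, of which 5 fell and 3 rose (19.8% and 20.4% of all genes tested), with 2 downregulated and 3 upregulated DEGs (5.21% of genes tested were DEGs, 2.35% downregulated and 2.86% upregulated). *Acan*, which encodes aggrecan, fell from 1282 ± 35.7 to 247 ± 12.0 CPM (log2 fold change -2.37 with a standard error of 0.035, adjusted p = 1.02e-28), a 5.18-fold decrease (the 8 synthesis and supply genes that fell did so by 1.20-fold to 2.82-fold). *Dcn*, encoding decorin with its single chain, rose from 264 ± 10.5 to 755 ± 4.11 CPM (log2 fold change 1.52, adjusted p = 6.32e-25). The downregulated DEG besides *Acan* was *Cspg4*, named after its values were seen, whose log2 fold change of -1.0015 lay at the threshold. *Srgn*, encoding serglycin, a proteoglycan of secretory granules, rose from 3.23 ± 0.426 to 11.4 ± 0.591 CPM (log2 fold change 1.82, adjusted p = 1.79e-13). The remaining upregulated DEG was *Vcan*, named after its values were seen. *Vcan* rose from 8.71 ± 0.511 to 19.8 ± 1.34 CPM (log2 fold change 1.18, adjusted p = 1.4e-12).

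**Figure D4:**
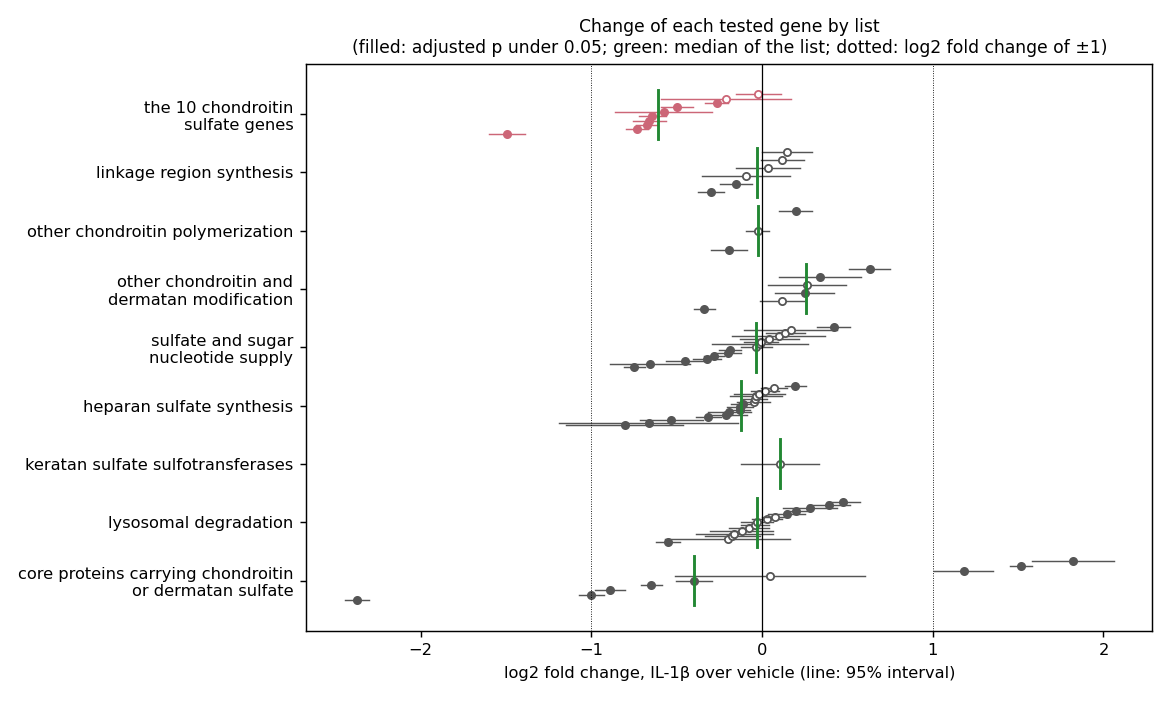
Log2 fold change (IL-1β over vehicle) of each tested gene with its 95% interval, by list, where filled points had an adjusted p under 0.05, the green line is the median of the list and dotted lines mark -1 and 1. The 10 chondroitin sulfate genes have a median of -0.61 with *Chsy3* apart at -1.49, and the core proteins spread from -2.37 to 1.82.

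Other properties of the libraries bear on all of these values. Total counts were 10992355 to 17456063 per sample, at which 3 counts correspond to 0.173 to 0.27 CPM, and each of the 10 genes exceeded 1 CPM in all 8 samples. All 10 chondrocyte markers, *Col2a1*, *Acan*, *Sox9* and *Comp* among them, were detected. All 10 were downregulated DEGs, where 2.35% of all genes tested were. Their summed level was 16155 to 16776 CPM in vehicle samples against 4194 to 4606 CPM in IL-1β samples. For the marker lists that follow, 19.8% of all genes tested fell and 20.4% rose. Of 6 osteoblast markers 5 were tested and all 5 fell, with a sum of 136 to 146 CPM in vehicle samples against 54.0 to 63.8 CPM in IL-1β samples, and *Dmp1* stayed under 1 CPM. Of 10 macrophage and leukocyte markers 2 were tested, *Cd68*, which rose, and *Lyz2*, which fell, with a sum of 11.7 to 14.0 CPM in vehicle samples against 16.5 to 19.4 CPM in IL-1β samples and *C1qb* at 0 in every sample. Of 6 fibroblast markers 3 were tested, of which 1 rose and 1 fell, with sums of 164 to 172 and 158 to 174 CPM. All 8 endothelial and all 5 osteoclast markers stayed under 1 CPM in every sample, and of 5 erythroid and 5 muscle markers 1 and 0 were tested. The part of these markers in the decrease of the chondroitin sulfate genes was not tested.

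The genes are spread over several chromosomes of GRCm38, some of them on the same one, and all encode proteins. *Xylt1* (ENSMUSG00000030657.11) spans chromosome 7 from 117380979 to 117673580, *Chsy1* chromosome 7 from 66109515 to 66173798 and *Chst15* chromosome 7 from 132235780 to 132317228. *Papss1* lies on chromosome 3 from 131564768 to 131643671, *Papss2* on chromosome 19 from 32595790 to 32667187 and *Csgalnact1* on chromosome 8 from 68356781 to 68735146. *Chst3* spans chromosome 10 from 60181532 to 60219260 and *Chst11* chromosome 10 from 82985498 to 83195900. *Chsy3* lies on chromosome 18 from 59175401 to 59535999, and *Slc26a2* on the same chromosome from 61192919 to 61211612. An antisense gene, *Gm10584*, shares 17.9% of the exon bases of *Chst15*, and another, *Gm26827*, shares 3.54% of those of *Chsy1*. Whether the counting used strand is not given in the sources used here, so those reads could not be told apart, and the other 8 genes share no exon bases.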

How the data were processed

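RNA-Seq of 8 samples was used, grouped by the treatment in the labels. The authors trimmed reads with cutadapt, aligned them to mm10 (GENCODE vM20) with STAR, and deposited featureCounts read counts per gene symbol beside a gene length in bases. These counts are whole numbers, and it is not stated whether they precede the RUVseq correction that the methods name. All 8 columns were used.

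Genes with CPM above 1 in at least 4 samples (14404) were tested by edgeR 4.0.16 (R 4.3.3): TMM, treatment as the only term, quasi-likelihood test, Benjamini-Hochberg adjustment. CPM and RPKM were computed from the counts with TMM factors of 0.984 to 1.01 and the listed lengths. Standard errors and 95% intervals refer to the log2 fold change and use the moderated degrees of freedom. Ratios of reads per kilobase were compared by exact permutation over samples (scipy 1.17.1). On simulated counts for this comparison with 200 changed genes among 14404, edgeR and DESeq2 1.42.0 each recovered 200 with 0 false calls. How reliably small changes are called was not tested. Total counts per sample were 10992355 to 17456063, and intervals cover no more than the spread between samples. No samples were duplicates: the chi-square per degree of freedom was 1.98 to 6.35 within groups, where 1 is counting error alone. The highest values were those of vehicle 4 against vehicle 1 (6.35) and vehicle 2 (6.245), while vehicle 4 against vehicle 3 had 2.76.

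The 10 genes, the lists and the ratios were chosen with earlier results of these data known. Named genes are these 10, up to 3 tested genes with the largest absolute log2 fold change at an adjusted p under 0.05 in each list, the partners in the ratios, *Acan* and *Col2a1*, and 1 gene that the rule names is not reported here. Positions come from GENCODE vM21 and promoters from RefSeq (both GRCm38). Alternatives were DESeq2, other size factors, other filters, the replicate block, 1 RUVs factor, glmTreat, a pseudocount, other gene lengths and each sample left out.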

Additional observations from a re-analysis of the deposited data

How the results depend on the processing

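Among the 10 chondroitin sulfate genes, the 8 that fell, the 0 that rose and the single DEG were the same numbers under every alternative in which they were counted, and their median log2 fold change ran from -0.65 to -0.57. *Papss1*, not called in any setting, had log2 fold changes from -0.089 to 0.039 with 1 sample left out, and changed sign to 0.039 without IL-1β replicate 4 and to 0.015 without vehicle replicate 2. The numbers of the samples did not pair them (correlations of same-numbered deviations -0.070 to 0.042, with 1 of 8 samples closest to its own number). The fit with the replicate block made 751 calls in all, as many as without it, and changed none of the counts over the 10 genes. With the block, a sign-flip test of the ratios of paired enzymes kept the differences of 0.70 (*Papss1* to *Papss2*), 0.86 (*Chsy1* to *Chsy3*), -0.47 (*Csgalnact1* to *Csgalnact2*) and -0.81 (*Xylt1* to *Xylt2*), but its adjusted p was 0.188, where the smallest unadjusted p that 4 pairs allow is 0.125. With 1 sample left out these ratios ran from 0.65 to 0.76, 0.83 to 0.88, -0.53 to -0.44 and -0.86 to -0.75, and the design then cannot go below p = 0.0571 in an exact test. *Chst15* to *Chst11* ran from -0.10 to 0.21 and was reversed without IL-1β replicate 1 (-0.10), IL-1β replicate 3 (-0.060), vehicle replicate 1 (-0.021) and vehicle replicate 4 (-0.039). Over all genes tested, 635 were upregulated and 571 downregulated DEGs with no filter on low counts, where more genes are tested, 266 were upregulated with CPM above 1 in all 8 samples, where fewer are, and glmTreat, which tests against the threshold itself, left 262 and 175. With 1 sample left out the counts were 316 to 423 and 286 to 346. Genes that rose numbered 2 in the supply list with DESeq2 size factors, with CPM above 1 in all 8 samples and with the RUVs factor, and downregulated core proteins numbered 1 with the RUVs factor and glmTreat, and the cause was not tested. With 1 sample left out, genes that rose ranged from 0 to 1 in the linkage list, 1 to 4 in the modification list, 1 to 2 in the supply list and 1 to 2 in the heparan sulfate list, and downregulated core proteins from 1 to 2. With the exon lengths of GENCODE vM21, chosen after seeing the data, 4 of the 10 genes changed their place in the order of levels (*Chsy3*, *Csgalnact1*, *Papss1* and *Slc26a2*). *Chst3* and *Chst15* had at most 102 and 56 reads in a sample, which limits the precision of their values.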

Other observations

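Genes of the related chains were measured in the same samples. Heparan sulfate is built on the same linkage region. Of 22 genes that make it or remove sulfate from it, 16 were tested. Of these, 9 fell, 1 rose and none was a DEG (median log2 fold change -0.12), while 19.8% of all genes tested fell, 20.4% rose and 5.21% were DEGs. The 3-O-sulfotransferases of heparan sulfate had the lowest log2 fold changes of that list. *Hs3st1* fell from 4.44 ± 0.819 to 2.4965 ± 0.344 CPM (log2 fold change -0.80, adjusted p = 0.000262), and *Hs3st3b1* fell from 15.8 ± 0.462 to 10.8 ± 1.55 CPM (log2 fold change -0.53, adjusted p = 1.62e-05). *Hs3st3a1* was at 1.89 ± 0.429 and 1.15 ± 0.439 CPM with groups that overlapped (log2 fold change -0.66, adjusted p = 0.0395), and its call was lost with DESeq2 (adjusted p = 0.0779) and without IL-1β replicate 1 (adjusted p = 0.118) or 4 (adjusted p = 0.121) or vehicle replicate 2 (adjusted p = 0.0900), 3 (adjusted p = 0.1199) or 4 (adjusted p = 0.0572). *Hs3st3a1* had 8 to 35 reads per sample, and an antisense gene shares 32.9% of its exon bases. The gene that rose was *Sulf1*, an extracellular sulfatase of heparan sulfate, named after its values were seen (log2 fold change 0.19, adjusted p = 5.47e-06). Of 5 keratan sulfate genes 1 was tested, *Chst2*, likewise named after its values were seen, which did not pass (log2 fold change 0.11, adjusted p = 0.493).

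Of 15 lysosomal genes for the breakdown of glycosaminoglycans, all were tested, of which 5 rose, 1 fell and 9 did not pass (median log2 fold change -0.031), while 20.4% of all genes tested rose and 19.8% fell. *Naglu*, which acts on heparan sulfate, rose from 37.9 ± 1.32 to 52.6 ± 3.06 CPM (log2 fold change 0.48, adjusted p = 1.87e-09). *Glb1*, a lysosomal beta-galactosidase, rose from 19.4 ± 0.645 to 25.6 ± 1.19 CPM (log2 fold change 0.39, adjusted p = 4.7e-06). *Ids*, the sulfatase that removes 2-O-sulfate from dermatan and heparan sulfate, fell from 115 ± 1.68 to 78.6 ± 2.22 CPM (log2 fold change -0.55, adjusted p = 8.72e-14).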
